A study of Canis lupus with 20 samples.

Results

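IFI44L, IFIH1, ISG15, MX1, OAS1 and OAS2 are 6 interferon-induced genes whose signals moved up and down together across heart samples of dogs. They were selected on that co-variation, that is on their values in all 20 arrays of this series, so their levels, spread and correlations are given as a description with no test. They are 6 of the 15115 genes that the array's annotation pairs with a probe set of 1 gene symbol. They have 13 such probe sets, of which 12 passed the filter on dim signals. Each gene is represented by its brightest probe set unless stated otherwise.

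Interferons are secreted proteins that cells release when they sense foreign or misplaced nucleic acid. Type I and type III interferons bind receptors that act through the kinases JAK1 and TYK2, and a transcription factor complex that includes STAT2 and IRF9 switches on a broad set of target genes. These targets are expressed in most cell types, heart muscle included, and serve as the usual readout of interferon exposure in a tissue. Among the 6 genes IFIH1 encodes MDA5, a cytosolic sensor of long double-stranded RNA. OAS1 and OAS2 make the second messenger that activates RNase L, which degrades RNA. MX1 is a dynamin-like GTPase that blocks viruses, and ISG15 is a ubiquitin-like protein that is attached to other proteins. IFI44L is an interferon-induced gene whose molecular role is less settled.

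The tissue came from normal dogs killed 12 weeks after a right-sided uninephrectomy (UNX), which removes 1 kidney, or after a sham operation. The 4 groups of 5 arrays each were UNX left atrium, sham left atrium, UNX left ventricle and sham left ventricle, and 6 dogs had been assigned to each operation. Total RNA was isolated with Trizol and 100 ng was labelled with biotin for Affymetrix canine arrays, without technical replicates. The labels do not give the dogs' age, and they number the arrays of a group without saying that equal numbers come from 1 dog.

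The chamber labels matched the markers measured: 4 of 4 atrial markers were higher and 4 of 4 ventricular markers lower in the atrium, in UNX and in sham dogs. Markers of heart muscle had a mean log2 signal of 13.2 to 13.4 in each atrial array and 13.5 to 13.7 in each ventricular array. No array's values were identical to another's, and the highest correlation between 2 arrays was 0.995. The tissue is bulk, so fewer cells of a type and less RNA per cell cannot be told apart.

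IFI44L had log2 signals of 7.95, 8.17, 9.54, 8.27 and 9.51 in UNX atrial arrays 1 to 5, against 6.74, 8.63, 9.67, 8.60 and 8.97 in sham atrial arrays 1 to 5. It had 10.14, 9.87, 8.63, 8.46 and 8.62 in the UNX ventricle, against 7.41, 8.88, 10.47, 9.27 and 8.97 in the sham ventricle. Arrays 3 and 5 were high in the UNX atrium and arrays 1 and 2 in the UNX ventricle, while in both sham chambers array 1 was lowest and array 3 highest. The UNX and sham ranges overlapped in both chambers. Within the sham ventricle alone the signal differed 8.35-fold between the highest and the lowest array, and within the UNX ventricle 3.19-fold.

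ISG15 gave nearly the same picture. Its log2 signals were 9.48, 9.49, 10.96, 9.68 and 10.66 in the UNX atrium, against 8.46, 9.92, 11.19, 10.05 and 10.01 in the sham atrium. In the ventricle they were 11.34, 11.16, 9.99, 9.83 and 10.07 in UNX dogs, against 8.99, 10.27, 11.62, 10.62 and 10.15 in sham dogs. The arrays that were high and low for IFI44L were again high and low, and the UNX and sham ranges overlapped in both chambers.

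MX1 had 8.15, 8.11, 9.58, 8.27 and 9.40 in the UNX atrium, against 7.31, 8.57, 9.43, 8.62 and 8.94 in the sham atrium (log2 signal). In the ventricle it had 10.05, 9.92, 8.58, 8.48 and 8.43 in UNX dogs, against 7.76, 8.77, 10.07, 8.92 and 8.78 in sham dogs. In the UNX ventricle arrays 1 and 2 stood 1.34 log2 units above the other 3, which lay within 0.15 of each other. The UNX and sham ranges overlapped in both chambers.

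IFIH1, the RNA sensor, had the widest spread within groups among the brightest probe sets of the 6. Its log2 signals were 5.59, 6.12, 7.54, 5.24 and 7.01 in the UNX atrium, against 4.35, 6.09, 7.21, 6.27 and 7.04 in the sham atrium. In the ventricle they were 7.89, 8.03, 6.27, 6.61 and 6.33 in UNX dogs, against 5.28, 6.54, 7.72, 7.24 and 6.96 in sham dogs. UNX ventricular array 2 was marginally above array 1 here, the reverse of the other 5 genes, and the UNX and sham ranges overlapped in both chambers.

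OAS2 had 6.69, 6.94, 8.14, 6.42 and 7.52 in the UNX atrium, against 5.30, 6.87, 8.18, 6.87 and 7.41 in the sham atrium (log2 signal). In the ventricle it had 8.73, 8.34, 7.70, 7.37 and 7.18 in UNX dogs, against 6.70, 7.69, 8.93, 7.90 and 7.60 in sham dogs. Its highest arrays were those of IFI44L in each group, its lowest arrays differed in the UNX groups, and the UNX and sham ranges overlapped in both chambers.

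OAS1 spread least. Its log2 signals were 5.95, 6.06, 7.28, 6.26 and 6.65 in the UNX atrium, against 5.50, 6.04, 6.95, 5.92 and 5.97 in the sham atrium. In the ventricle they were 7.62, 7.20, 6.44, 6.43 and 6.56 in UNX dogs, against 5.62, 6.56, 7.67, 6.61 and 6.29 in sham dogs. UNX and sham ranges overlapped in both chambers.

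**Figure D1:**
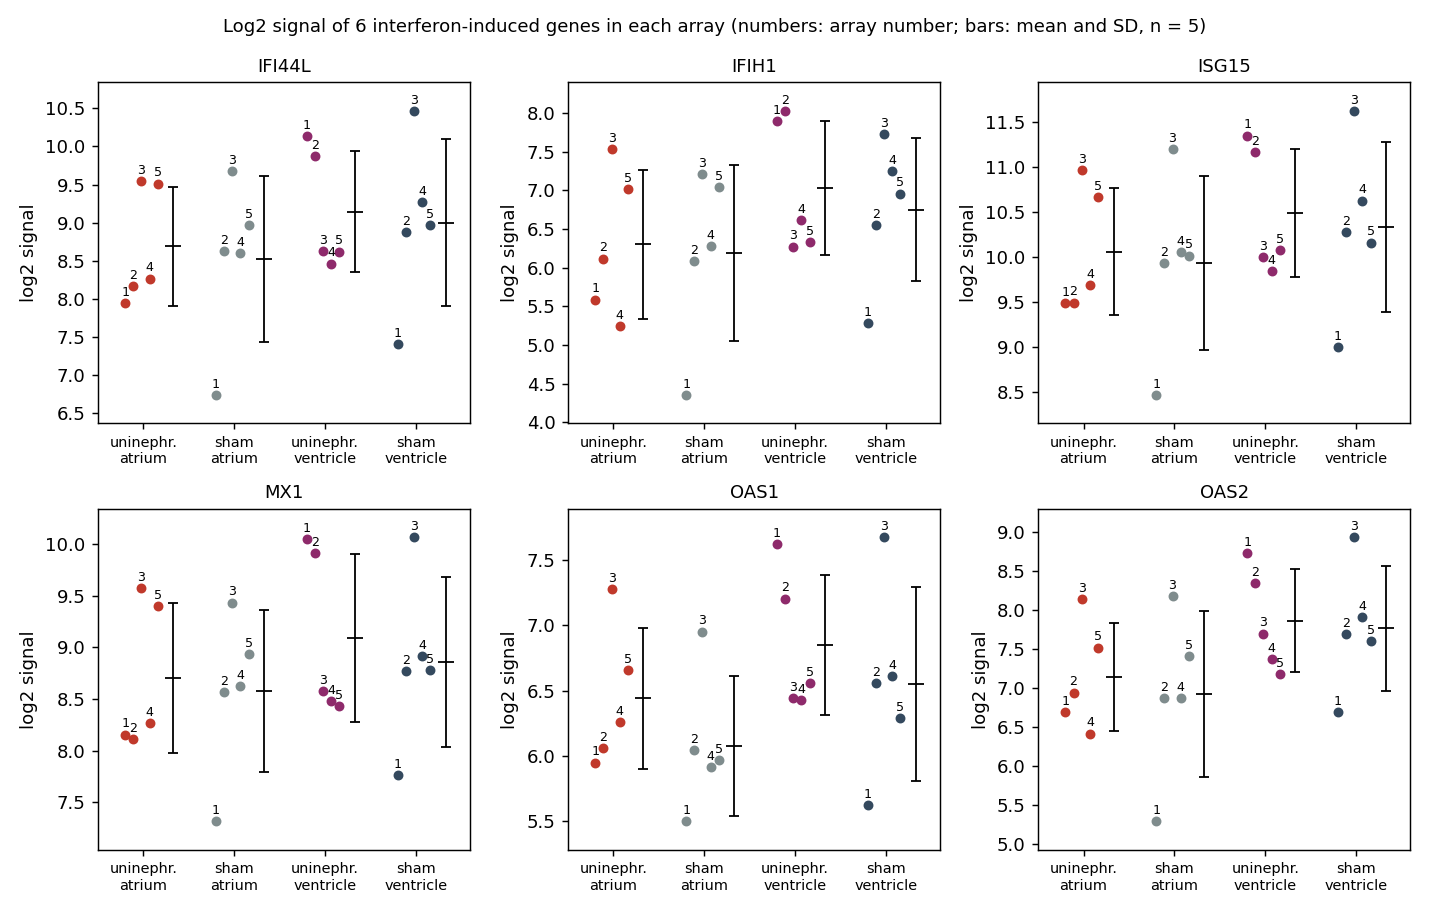
Log2 signal (vertical axis) of the 6 genes in each of the 20 arrays by group (horizontal axis), with the array number beside each point and black bars for the group mean and SD (n = 5). In every panel array 1 is lowest and array 3 highest in both sham chambers, arrays 3 and 5 are highest in the UNX atrium, and arrays 1 and 2 are highest in the UNX ventricle.

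The same arrays were thus extreme for the whole set. In the sham atrium and in the sham ventricle array 1 was lowest and array 3 highest for 6 of 6 genes. In the UNX atrium array 3 was highest for 6 of 6, and in the UNX ventricle array 1 was highest for 5 and array 2 for 1. In the UNX groups the 2 highest arrays stood 0.39 to 1.34 log2 units above the other 3. This gap was wider than the span of those 3 in 12 of 12 combinations of gene and chamber, which are not separate observations. In the UNX atrium the 2 highest arrays lay farther apart than the gap for OAS1 and OAS2. They had 7.28 and 6.65 for OAS1 (gap 0.39), and 8.14 and 7.52 for OAS2 (gap 0.58). Averaged over the 6 genes, the log2 signal was 7.30, 7.48, 8.84, 7.36 and 8.46 in the UNX atrium, against 6.28, 7.69, 8.77, 7.72 and 8.06 in the sham atrium. The averages were 9.29, 9.09, 7.93, 7.86 and 7.87 in the UNX ventricle, against 6.96, 8.12, 9.41, 8.43 and 8.12 in the sham ventricle. No array met Dixon's criterion for an outlying value in any of the 28 groups of 5 tested, which covered each gene and the average of the 6.

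Over all 20 arrays the difference between the highest and the lowest array was 13.2-fold for IFI44L, 12.8-fold for IFIH1, 12.4-fold for OAS2, 8.92-fold for ISG15, 6.75-fold for MX1 and 4.51-fold for OAS1. The pooled SD within groups lay between 0.59 for OAS1 and 0.98 for IFIH1 on the log2 scale. The median over the 30047 probe sets tested was 0.17 and the 95th percentile 0.54. The 6 genes therefore sat above 96.1% to 99.2% of all probe sets in their spread between arrays of 1 group.

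The co-variation that chose the genes was tight. Over 20 arrays, with each value taken as its deviation from the group mean, the 15 pairs of genes had Pearson correlations of 0.84 (IFIH1 with OAS1) to 0.99 (IFI44L with ISG15), with a median of 0.950. Without the 2 arrays farthest from the middle, sham atrial array 1 and sham ventricular array 3, the median was 0.933. Within UNX arrays alone the median was 0.938 and within sham arrays 0.958, and it was 0.950 within atrial and 0.973 within ventricular arrays. The arrays are not all independent points, since atrial and ventricular tissue may come from the same dogs, and all genes on an array share its RNA and its normalization.

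The genes differed in how far they moved. For each log2 unit in the mean of the other 5 genes, IFI44L moved 1.20 units, IFIH1 1.18, ISG15 1.03, OAS2 0.97, MX1 0.95 and OAS1 0.64. The slope of OAS1 is that of its brightest probe set, whose mean log2 signal of 6.48 was near the 6.57 of IFIH1. Why OAS1 moved less was not tested. The remaining probe sets mostly followed. ISG15's other probe set had a correlation of 0.98 with the brightest one, and the 2 others of IFI44L had 0.97 and 0.92. Of the 4 other probe sets of OAS1, 2 had 0.94 and 0.89. A dim OAS1 probe set with a mean of 3.27 had 0.49, and the untested one, with a mean of 1.29, had 0.50.

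The group means of all 6 genes stood in the same order: UNX ventricle highest, then sham ventricle, UNX atrium and sham atrium. For ISG15 they were 10.5 ± 0.71, 10.3 ± 0.94, 10.1 ± 0.70 and 9.93 ± 0.97 (log2, SD, n = 5). For OAS1 they were 6.85 ± 0.54, 6.55 ± 0.74, 6.44 ± 0.54 and 6.08 ± 0.53. For each of the 6 genes every neighbouring pair in this order differed by less than the SD of either group. The 6 genes rise and fall together, so their shared order is not 6 separate observations.

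Uninephrectomy against sham was tested with limma over 30047 probe sets, with Benjamini-Hochberg adjustment and a call at an adjusted p under 0.05. In the atrium the 6 genes were higher in UNX dogs by 0.11 to 0.36 on the log2 scale, and none passed. OAS1 had the largest difference, 6.44 ± 0.54 in the UNX atrium against 6.08 ± 0.53 in the sham atrium (SD, n = 5). Its log2 difference was 0.36 ± 0.35 (SE), with a 95% interval of -0.37 to 1.10 and a limma adjusted p of 0.872. ISG15 differed by 0.13 ± 0.50, with an interval of -0.91 to 1.17 and a limma adjusted p of 0.980. The limma adjusted p of all 6 lay between 0.872 and 0.987. Limma called 0 of 6 genes and 0% of all probe sets, and 2010 probe sets had an unadjusted p under 0.05.

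In the ventricle the 6 genes stood 0.10 to 0.30 log2 units higher in UNX dogs, and limma called 0 of 6 and 0% of all probe sets (2005 at an unadjusted p under 0.05). OAS1 had a log2 difference of 0.30 ± 0.35 with an interval of -0.44 to 1.03, and IFIH1 of 0.28 ± 0.57 with an interval of -0.93 to 1.48. The limma adjusted p lay between 0.897 and 0.985. These estimates moved with the processing. Over the alternative fits described below the differences of the 6 genes spanned -0.25 to 0.84 in the ventricle and -0.35 to 0.58 in the atrium, and none was called. The intervals of all 6 genes in both chambers reach at least 1.03 log2 units upward, so an increase of that size lies within the intervals. The median SE over all probe sets was 0.11, against 0.35 to 0.57 for the 6 genes.

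The effect of uninephrectomy did not differ detectably between the chambers. The atrial minus the ventricular effect was between -0.17 for IFIH1 and 0.12 for OAS2 (log2), with a limma adjusted p of 1.00 for each gene. Limma called 0 of 6 and 0% of all probe sets for this difference, with 893 at an unadjusted p under 0.05.

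Between the chambers the means of the 6 genes were lower in the atrium, and none passed the test. In UNX dogs the log2 differences of atrium minus ventricle lay between -0.73 ± 0.57 (SE) for IFIH1 and -0.39 ± 0.46 for MX1, with limma adjusted p from 0.290 to 0.593. Limma called 0 of 6, against 27.3% of all probe sets. In sham dogs the differences lay between -0.84 ± 0.48 for OAS2 and -0.28 ± 0.46 for MX1, with limma adjusted p from 0.239 to 0.727. Limma called 0 of 6, against 20.8% of all probe sets. With the 3' gap described below as a covariate, the sham difference turned to 0.10 for IFI44L, 0.09 for ISG15 and 0.13 for MX1, and that of MX1 also turned without sham atrial array 1 (0.03) or sham ventricular array 3 (0.02).

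**Figure D2:**
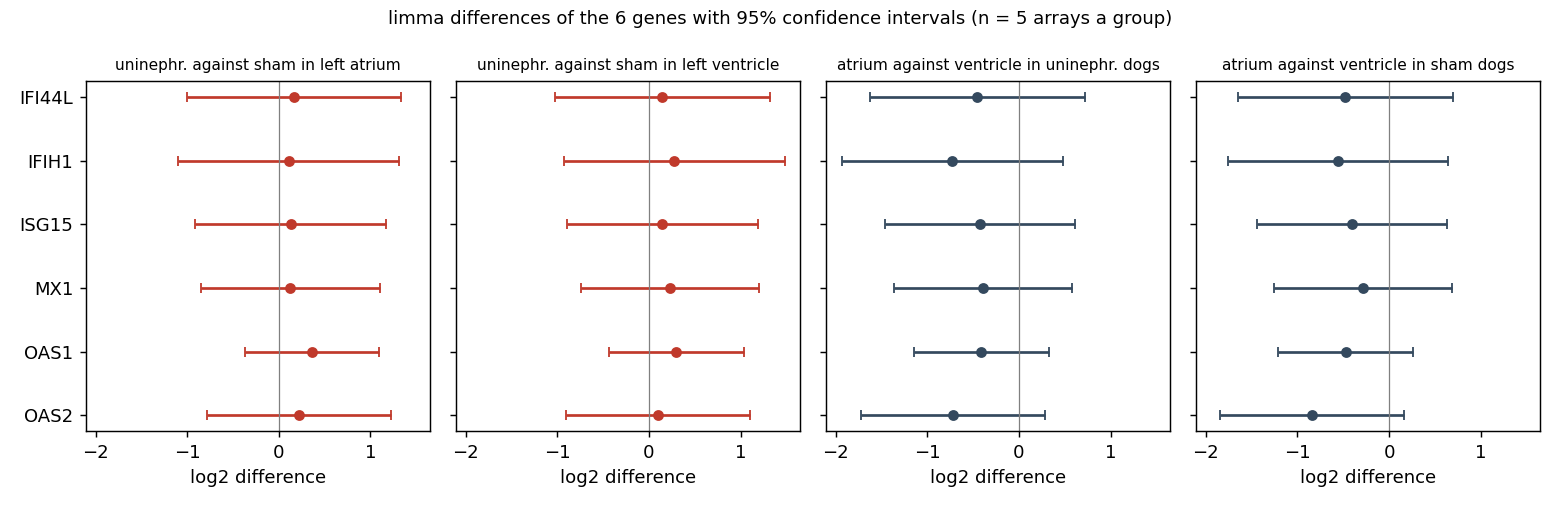
limma log2 differences (horizontal axis) of the 6 genes (rows) in 4 comparisons, with bars for the 95% confidence interval from 5 arrays a group. All differences between UNX and sham lie at or above 0.10, all differences between atrium and ventricle at or below -0.28, and every interval includes 0.

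Sham arrays of the same number had similar signals in both chambers. The average of the 6 genes in the atrium minus that in the ventricle was -0.68, -0.43, -0.64, -0.71 and -0.07 for sham numbers 1 to 5. Its SD of 0.27 was small beside the range of 2.48 between the averages of the numbers. In UNX dogs the same differences were -1.99, -1.61, 0.91, -0.51 and 0.59, with an SD of 1.29. UNX arrays of the same number therefore did not share their level. Over all 30047 probe sets, deviations from the group mean correlated between same-numbered atrial and ventricular arrays at 0.21 to 0.46 in sham dogs and at -0.24 to 0.11 in UNX dogs.

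**Figure D3:**
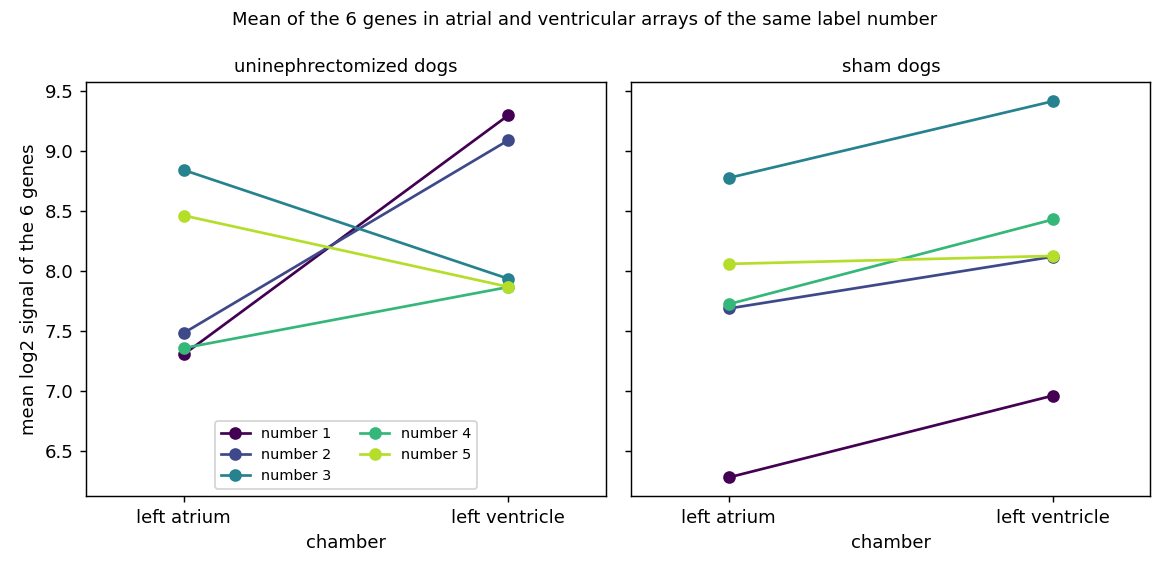
Mean log2 signal of the 6 genes (vertical axis) in left atrial and left ventricular arrays (horizontal axis), with a line joining arrays of the same label number, for UNX dogs (left) and sham dogs (right). The sham lines of numbers 1 to 4 run nearly parallel and that of number 5 is nearly level, with number 1 lowest and number 3 highest in both chambers, and the UNX lines cross.

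A fit of the sham arrays alone with the number as a block, chosen after seeing the data, compared the chambers within numbers. The block rests on a pairing of numbers that was taken from the data and not from the labels. As given below, that pairing is uncertain for some numbers. With limma and Benjamini-Hochberg adjustment 5 of 6 genes were called lower in the sham atrium than in the sham ventricle. Of all probe sets 9.28% were called lower. The 6 genes were selected for moving together, so their calls are not separate observations and cannot show an excess over all probe sets. OAS2 had a log2 difference of -0.84 ± 0.16 (SE, adjusted p = 0.0133), lower in 5 of 5 numbers. ISG15 differed by -0.40 ± 0.08 (adjusted p = 0.0173), also lower in 5 of 5 numbers. OAS1 followed at -0.47 ± 0.11 (adjusted p = 0.0220), IFI44L at -0.48 ± 0.13 (adjusted p = 0.0436) and IFIH1 at -0.56 ± 0.16 (adjusted p = 0.0476). MX1 stood at -0.28 ± 0.12 (adjusted p = 0.142).

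These calls depended on single numbers. Without sham number 1 limma called OAS1 and OAS2, without number 2 or without number 3 ISG15 and OAS2, without number 4 none, and without number 5 all 6. The 3' gap, the log2 signal of 3' minus upstream probe sets of the control transcripts of ACTB, GAPDH and EEF1A, is a measure of RNA degradation and amplification. It was 1.19 ± 0.19 in the sham atrium and 1.42 ± 0.27 in the sham ventricle (SD, n = 5), lower in the atrium in 4 of 5 numbers and with overlapping ranges. With the gap as a covariate in the blocked fit limma called 0 of 6, with adjusted p between 0.0675 for OAS2 and 0.486 for MX1. The log2 differences were then -0.94 ± 0.24 (SE) for OAS2, -0.58 ± 0.24 for IFIH1, -0.40 ± 0.13 for ISG15, -0.39 ± 0.16 for OAS1, -0.36 ± 0.19 for IFI44L and -0.23 ± 0.18 for MX1.

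The gap was 1.10 ± 0.26 in the UNX atrium and 1.19 ± 0.19 in the sham atrium, and 1.14 ± 0.15 in the UNX ventricle and 1.42 ± 0.27 in the sham ventricle. Within groups it had a correlation of 0.50 with the average of the 6 genes over 20 arrays. After the gap was taken out of each gene the median correlation between the 6 genes was 0.946. The upper quartile of an array's signals had a correlation of -0.23 with the average of the 6.

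**Figure D4:**
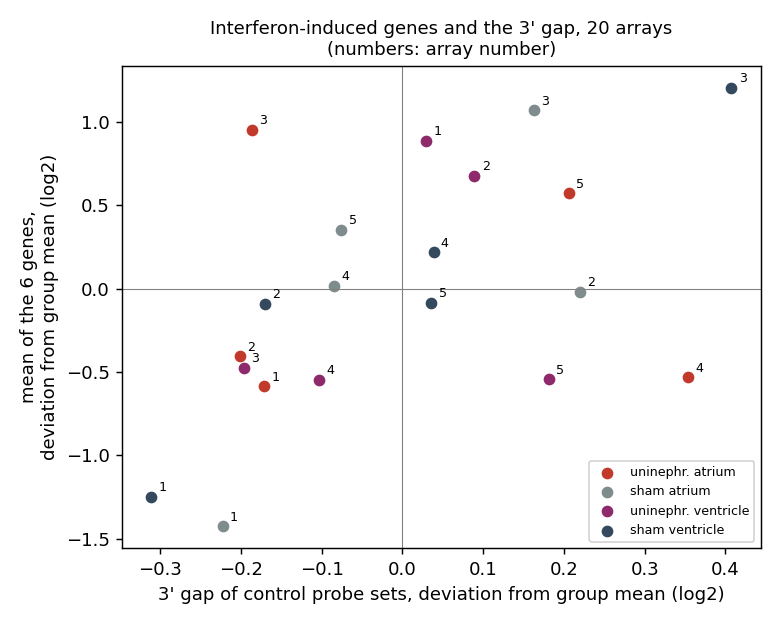
Mean of the 6 genes (vertical axis) against the 3' gap of the control probe sets (horizontal axis), both as log2 deviations from the group mean, for 20 arrays coloured by group and labelled with the array number. Sham array 1 is low on both axes in both chambers and sham ventricular array 3 is high on both, while UNX atrial array 3 combines a high mean with a gap below its group mean.

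Other interferon-induced genes moved with the 6. Each of the 11417 other genes tested was correlated with the average of the 6 over 20 arrays of deviations from group means, and the median was 0.03 with quartiles of -0.17 and 0.22. Only 15 of them (0.131%) reached 0.8. PARP14, an ADP-ribosyltransferase, came first with 0.97, followed by XAF1 (0.91), a proapoptotic XIAP-associated factor. SAMD9L, an antiviral translation repressor, had 0.90, the galectin LGALS9 0.89, EPSTI1 0.89 and HERC5, in humans the ligase that attaches ISG15, 0.89. LOC488947, which the table does not name further, had 0.89, KIAA1549 0.89, TDRD7, a tudor-domain protein, 0.89 and PSMB8, a subunit of the immunoproteasome, 0.88.

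PARP14 had log2 signals of 6.70, 6.49, 7.81, 6.29 and 7.54 in the UNX atrium, against 5.78, 6.78, 7.69, 6.99 and 7.20 in the sham atrium. In the ventricle it had 8.42, 7.94, 7.33, 6.95 and 6.74 in UNX dogs, against 6.44, 7.04, 8.39, 7.54 and 7.35 in sham dogs. Its highest arrays were those of the 6 genes in every group, and its UNX and sham ranges overlapped in both chambers. HERC5 had 2.86, 3.30, 5.72, 3.59 and 4.76 in the UNX atrium, against 2.89, 3.77, 4.69, 3.45 and 4.01 in the sham atrium. It had 5.70, 4.61, 3.21, 3.39 and 3.46 in the UNX ventricle, against 2.97, 3.18, 6.58, 4.02 and 3.41 in the sham ventricle. HERC5 was dim in most arrays and stood out in the arrays where the 6 genes were highest.

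At the other end VSIG10 had -0.85, LOC477353 -0.80, USP33, a deubiquitinase, -0.78, LOC609612 -0.78 and P2RY1, a purinergic receptor, -0.77. VSIG10 was the only gene at -0.8 or lower, and its log2 signals spanned no more than 3.07 to 3.52. None of these 5 belongs to an interferon list.

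The interferon pathway was read from lists of 136 further genes, of which 81 were tested. Their median correlation with the average of the 6 was 0.34, against 0.02 for the 11336 remaining genes. Of the 81, 11 (13.6%) reached 0.8, against 4 (0.0353%) of the remaining genes. The 6 genes and the lists were chosen with earlier results of these data known, so these shares are a description and no test. Those 4 are LGALS9, LOC488947, KIAA1549 and ZNFX1, the last named after its value was seen. Interferons themselves were mostly not tested: of 14 ligand genes 1 was, IFNL1, at a log2 signal under 3 in each array and with a correlation of 0.44. Among 5 receptor subunits the median was 0.20. IFNLR1, of the type III receptor and also under 3 in each array, had 0.49, IFNGR2 0.20, IL10RB 0.20 and IFNAR1 0.12. IFNGR1, the other subunit of the type II receptor, had -0.48.

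The signalling genes divided. IRF9, the DNA-binding subunit of the complex that drives these target genes, had a correlation of 0.79, STAT2, its partner, 0.54 and the kinase JAK1 0.29. Of 4 interferon regulatory factors IRF7, itself interferon-induced, had 0.78, IRF2 0.08, IRF3 -0.09 and IRF1 -0.41, with a median of -0.01. Among 8 genes of nucleic acid sensing the median was 0.14, with 0.56 for the RNA sensor DHX58, 0.49 for the ubiquitin ligase TRIM25 and 0.28 for the kinase TBK1. DHX58 and TRIM25 lay under log2 3 in each array.

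The induced effectors were most alike. Of 35 tested, 31 had a positive correlation and 9 reached 0.8, and their median was 0.67. Besides PARP14, XAF1, SAMD9L, EPSTI1, HERC5 and TDRD7, those at 0.8 or more were DTX3L (0.88) and PARP9 (0.84), which form a ubiquitin ligase complex, and IFI44 (0.85), the neighbour of IFI44L in the supplied gene table. MX2, the neighbour and paralogue of MX1, had 0.79. Not every effector followed: IFI6 had -0.37, and OAS3, of the OAS family, -0.05 at a log2 signal under 3. Of 8 negative regulators USP18, which removes ISG15 from proteins, had 0.84, USP15 0.25 and PIAS1 0.10, and the median was -0.01. Among 15 genes of class I antigen presentation PSMB8 had 0.88, the peptide transporter TAP1 0.77 and the proteasome activator PSME2 0.69, and the median was 0.29.

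**Figure D5:**
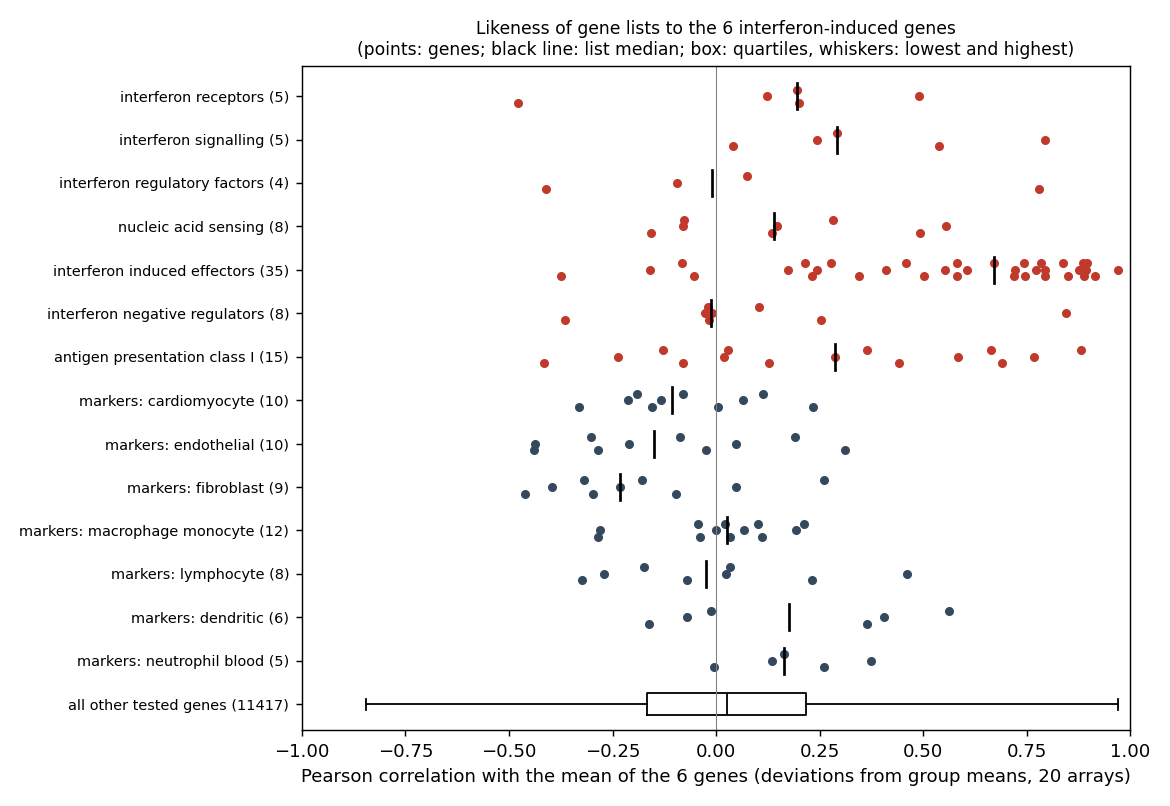
Pearson correlation over 20 arrays with the average of the 6 genes (horizontal axis) for the genes of each list (rows, number of genes in brackets), with a black line at the list median and, for the 11417 other genes tested, a box at the quartiles with whiskers to the extremes. The induced effectors have a median of 0.67, and the markers of each cell type have medians between -0.23 and 0.18.

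The marker lists of cell types had median correlations between -0.23 and 0.18 with the average of the 6 genes. The mean of 10 endothelial markers had a correlation of -0.47 with it, that of 9 fibroblast markers -0.34, that of 10 heart muscle markers -0.21 and that of 12 macrophage markers -0.01. The means of 8 lymphocyte, 6 dendritic and 5 neutrophil and blood markers had 0.19, 0.34 and 0.33. Of the lymphocyte markers 7 of 8 lay under log2 3 in each array, as did 4 of 12 macrophage, 3 of 6 dendritic and 3 of 5 neutrophil and blood markers. Only 8 of 18 listed lymphocyte, 6 of 12 dendritic and 5 of 11 neutrophil and blood markers were tested. CD3D and CD3E were not among them. The mean signal of the lymphocyte markers ranged from 2.12 to 2.79 in the UNX atrium and from 2.26 to 2.85 in the sham atrium, and from 2.24 to 2.53 in the UNX ventricle and from 2.20 to 2.75 in the sham ventricle. The part of these cell types in the co-variation was not tested.

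After uninephrectomy no gene of the interferon lists passed the test in either chamber. In the atrium 37 of the 81 genes were higher and 44 lower in UNX dogs, with a median log2 difference of -0.01, the same as over all 11423 genes, and a lowest limma adjusted p of 0.637. In the ventricle the counts were again 37 and 44, with a median of -0.02 against -0.01 over all genes, and a lowest limma adjusted p of 0.480.

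Between the chambers 2 of 5 receptor subunits were higher in the atrium in UNX and in sham dogs and 0 lower. Of the 35 induced effectors 2 were higher and 6 lower in the atrium of UNX dogs, and 3 higher and 4 lower in that of sham dogs. In UNX dogs limma called 10 of 81 list genes higher and 10 lower in the atrium (12.3% each), against 16.2% and 13.7% of all genes. In sham dogs it called 11 higher and 6 lower (13.6% and 7.41%), against 12.0% and 10.8% of all genes. The median log2 difference of the list genes was -0.08 in UNX and -0.10 in sham dogs, against -0.02 and -0.01 over all genes.

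IFNAR1, a subunit of the type I receptor, was higher in the atrium by 1.07 ± 0.21 (SE) in UNX dogs and by 0.88 ± 0.21 in sham dogs (limma adjusted p 8.83e-04 and 0.00569). JAK1, which acts downstream of it, was higher by 0.66 ± 0.06 and 0.56 ± 0.06 (limma adjusted p 5.10e-07 and 4.42e-06). IRF3, the factor that starts interferon transcription, was higher by 0.77 ± 0.13 and 0.64 ± 0.13, and IFI6 by 0.97 ± 0.25 and 0.76 ± 0.25. IFNGR2, of the type II receptor, was higher by 0.64 ± 0.09 in UNX dogs, TRAFD1, a brake on innate signalling, by 0.63 ± 0.13 and IFIT5, an RNA-binding antiviral protein, by 0.90 ± 0.29 in sham dogs. All passed the limma test with adjusted p of at most 0.0399.

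XAF1, second in likeness to the 6 genes, was lower in the atrium and did pass the test. It had 5.49, 5.46, 6.50, 5.42 and 5.86 in the UNX atrium, against 7.38, 7.13, 6.68, 6.66 and 6.50 in the UNX ventricle, a log2 difference of -1.12 ± 0.30 (SE, limma adjusted p = 0.00887). The UNX ranges met at 6.50 without overlapping, while the sham ranges overlapped. It had 5.23, 5.89, 7.05, 5.68 and 5.74 in the sham atrium, against 6.21, 6.60, 7.50, 7.02 and 6.86 in the sham ventricle, a log2 difference of -0.92 ± 0.30 (limma adjusted p = 0.0364). GBP5, an interferon-induced GTPase, was lower too, at -0.71 ± 0.17 in UNX and -0.69 ± 0.17 in sham dogs (limma adjusted p 0.00428 and 0.00681). Also lower in UNX dogs were PML, the organizer of nuclear bodies, PSMB10, an immunoproteasome subunit, and USP15, a deubiquitinase, at -0.67 ± 0.20, -0.55 ± 0.17 and -0.53 ± 0.09. In sham dogs PNPT1, a mitochondrial RNA-degrading enzyme, USP15 and OAS3 were lower, at -0.45 ± 0.12, -0.36 ± 0.09 and -0.27 ± 0.07. OAS3 lay under log2 3 in each array. PML, PSMB10, PNPT1 and OAS3 too are given only for the operation in which they ranked among the 5 largest changes. These calls on list genes are given without the 3' gap as a covariate, and the mean gap was 1.19 in the sham atrium and 1.42 in the sham ventricle.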

How the data were processed

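The authors deposited 1 table of 43035 probe sets by 20 arrays. Its values are on a log2 scale, per the range of the deposited values (0.43 to 15.0), and were used as deposited. The steps that led to them (summarization, background, normalization) are not given in the sources used here. Near the bottom of the scale a log2 difference can understate a change. Gene symbols came from the supplied platform annotation, which gives 1 symbol for 29264 probe sets and more than 1 for 439. The supplied gene table is of another assembly, so no coordinates are given.

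The 6 genes and all gene lists were chosen with earlier results of these data known. The 111 control probe sets and the 30% of probe sets with the lowest mean (under 1.87) were left out, which left 30047. Two-sided tests came from limma 3.58.1 (R 4.3.3), by lmFit and eBayes over the 20 arrays with a mean per group, 16 residual degrees of freedom and Benjamini-Hochberg adjustment over all probe sets tested. The fit was tested on simulated data. Correlations used the brightest probe set of each gene, as deviations from group means, in Python 3.11.15. Named were the 6 genes, the 10 genes most and the 5 least like their average, the 3 most alike genes of each list, and the called list genes with the 5 largest changes in each direction between chambers. Other genes, such as IFNGR1 and IRF1, were named after their values were seen, where a small list or count called for it.

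Replicates are separate samples per the labels, which do not say that equal numbers mark a dog. Deviations of same-numbered atrial and ventricular arrays correlated at 0.463, 0.226, 0.373, 0.295 and 0.209 in sham dogs, so the sham numbers were taken to pair, on the data and not on the labels. With the interferon-like probe sets taken out, each sham atrial array still correlated best with its own number (0.402, 0.231, 0.331, 0.294 and 0.212). With the 3' gap also taken out, sham atrial array 1 had 0.185 with ventricular array 3 and 0.183 with array 1. Sham atrial array 3 then had 0.075 with ventricular array 1 and 0.071 with array 3. After that step the pairing is thus uncertain for numbers 1 and 3. In UNX dogs the correlations were -0.061, -0.069, 0.115, -0.235 and 0.097, and the numbers were not taken to pair. The number of arrays limits the precision. A search of promoters for interferon response elements was not run, and no sequences were used here.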

Additional observations from a re-analysis of the deposited data

How the results depend on the processing

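In the fit without a block no member was called with no filter, a 50% filter, quantile normalization or array weights. None was called with only the groups of a contrast, the 3' gap as a covariate, or without each array in turn. Neither fit of 20 arrays with a replicate block called a member. Members were called only in the blocked fits of sham arrays alone. These account for all 17 calls among 144 alternative values for the chambers in sham dogs. No such fit was run for UNX arrays, whose numbers were not taken to pair. The calls therefore do not set sham apart from UNX dogs. The sign of the member differences changed in 14 of 102 alternative values for UNX against sham in the atrium, 12 of 102 in the ventricle, 47 of 156 for the difference of these effects, 0 of 102 for the chambers in UNX dogs and 5 of 144 in sham dogs. The cause was not tested. The median correlation between the 6 genes stayed between 0.933 and 0.973 over all alternatives, and between 0.941 and 0.954 without single arrays.

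The count of probe sets called between UNX and sham was 0 to 1 without single arrays in the atrium (1 without sham array 5) and 0 to 4 in the ventricle (4 without sham array 1, 1 without UNX array 1 or 4). With the replicate number as a block shared by all groups, limma called 0 probe sets between UNX and sham in either chamber. Equal numbers in UNX and sham are different dogs, so that block does not mark a dog. The chambers were compared with a block for each combination of operation and number, though the UNX numbers were not taken to pair. Limma then called 8312 probe sets in UNX dogs and 6411 in sham dogs, against 8190 and 6257 without a block. Both fits used 20 arrays and called 0 of 6 members. The fits of sham arrays alone were chosen after seeing the data. With the number as a block they called 5968, with the 3' gap added 2797, without number 1 3696 and without number 4 3541. Without single numbers in this blocked fit, or single arrays in the fit of all groups, the count between the sham chambers spanned 3541 to 6334. The cause was not tested. The blocked fit changed no other call on the members.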

Other observations

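Of the 8958 tested probe sets without a single gene symbol, 14 had a correlation of at least 0.8 with the average of the 6 genes over 20 arrays, and 7 of at least 0.9. The highest was 0.983, above that of PARP14, the first of the named genes. These probe sets are unnamed in the annotation used here. KIAA1549, which belongs to none of the interferon lists, had 6.62, 7.09, 7.39, 6.85 and 7.43 in the UNX atrium, against 5.79, 7.01, 7.34, 6.83 and 7.36 in the sham atrium. In the ventricle KIAA1549 had 7.64, 7.57, 5.69, 5.51 and 5.85 in UNX dogs, against 5.16, 6.49, 7.23, 6.64 and 5.63 in sham dogs. In the UNX ventricle the same arrays 1 and 2 were high.

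USP18, which removes ISG15 from proteins, had 5.79 and 5.40 in UNX ventricular arrays 1 and 2 and 2.81 to 3.17 in arrays 3 to 5, against 4.94 in sham ventricular array 3 and 2.81 to 3.09 in the other 4. In the atrium USP18 had 4.73 and 4.14 in UNX arrays 3 and 5 and 2.65 to 2.95 in the other 3, against 4.26 in sham array 3 and 2.92 to 3.43 in the other 4. USP18 was thus near the low end of the scale except in the arrays where the 6 genes were highest.

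In UNX dogs each atrial array correlated best over all tested probe sets with a ventricular array of another number. Atrial arrays 1, 2, 3, 4 and 5 had their best match in ventricular arrays 3, 4, 1, 5 and 2, at 0.437, 0.323, 0.167, 0.536 and 0.298, and each match was mutual. The average of the 6 genes, as a deviation from its group mean, differed by 0.01 to 0.14 between matched arrays. The average itself was lower in the atrium in each matched pair. With such small differences of deviations this follows from the UNX group means of 7.89 in the atrium and 8.41 in the ventricle. For atrial arrays 1 to 5 it was 7.30 against 7.93, 7.48 against 7.86, 8.84 against 9.29, 7.36 against 7.87 and 8.46 against 9.09. Without the interferon lists and probe sets correlated at 0.5 or more with that average, atrial array 3 had its best match in ventricular array 3 (0.143), and the other 4 matches stayed. The match of atrial array 3 was then not mutual, and the deviations of the average differed by 1.43 between its arrays. With the 3' gap also taken out, all 5 matches were as at first, at 0.286, 0.263, 0.158, 0.178 and 0.301. These values are a description: no fit used this matching, and the labels do not name dogs.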
